A study of Mus musculus with 2 samples.

Results

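The Rab genes encode small GTPases that direct membrane vesicles to their targets, and they were described here in parietal cells of the mouse stomach. Members were the protein-coding genes whose symbol is Rab followed by a number and at most 1 letter and 1 further digit. This rule found 59 of the 21160 protein-coding genes, and of the 38087 Ensembl identifiers in all, in the deposited tables. It used names only and no measured value. Parietal cells make gastric acid. They had been sorted from stomachs of C57BL/6 mice, 1 library from mice labelled HFD (high fat diet) and 1 from mice labelled control, called HFD cells and control cells below. The sources used here do not give the age or number of the mice, the composition or length of the diets, or the markers of the sort. With 1 library per diet no difference between diets could be tested, and every comparison is between these 2 libraries.

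A Rab protein is a molecular switch. Exchange factors load it with GTP on a chosen membrane, effectors such as myosin motors and tethers bind it there, and GTPase-activating proteins turn it off. GDP dissociation inhibitors then return the prenylated protein to another membrane. In the resting parietal cell the proton pump lies in internal tubulovesicles, and stimulation of the cell brings these membranes to the apical surface. Rab11a, Rab25 and Rab27b are known from the tubulovesicle membranes of these cells, and Rab11a marks apical recycling endosomes in many epithelia. Fewer cells of a type and less RNA per cell cannot be told apart in such bulk libraries.

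Values are RPKM, reads scaled to gene length and to sequencing depth, so that levels of genes of unequal length can be set side by side. A gene at or below 1 RPKM is listed as 0 in the deposited tables. The spacing of low values put the depth of HFD cells at about 25490000 reads and that of control cells at about 9840000. Of all identifiers, 13431 were listed above the floor in HFD cells and 15045 in control cells. The proton pump genes Atp4a (4997 RPKM in HFD cells, 4324 in control cells) and Atp4b (5639 and 4375 RPKM) were abundant in both libraries. Of the 11 parietal cell markers, 10 were higher and 1 was lower in HFD cells. Their summed level was 11677 RPKM in HFD cells and 9495 in control cells, with a median log2 ratio of 0.47. The part of this difference in the Rab values was not tested. Markers of other cells were present too. The summed level of 6 chief cell markers was 48583 RPKM in HFD cells and 106833 in control cells, that of 5 pit cell markers 36056 and 14515 RPKM, and that of 12 endocrine markers 1221 and 8335 RPKM. Of the chief cell markers, 1 was higher and 4 were lower in HFD cells, and Lipf was listed at 0 in both. Pgc alone made up most of their sum (45624 and 102292 RPKM). Of the pit cell markers, 4 were higher, led by Gkn1 (21736 and 5021 RPKM), and 1 was lower. Of the endocrine markers, 2 were higher and 10 lower. The values below therefore belong to the sorted fraction and not to parietal cells alone. Each interval beside a ratio is a 95% counting interval made from estimated reads, so it holds counting error alone and no variation among mice.

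The sequences just before the start of 4 recycling members are shown because these genes lay on opposite sides of equality: Rab11a and Rab10 were higher in HFD cells, and Rab11b and Rab25 were lower. Each is the 100 bases upstream of the annotated gene start, 5′ to 3′ on the gene's strand, from RefSeq windows on GRCm38.p6, at chr9:64737759-64737858 (minus strand) for Rab11a, chr12:3309970-3310069 (minus) for Rab10, chr17:33760531-33760630 (minus) for Rab11b and chr3:88548301-88548400 (minus) for Rab25. Capitals mark exact matches on either strand to 3 motifs: the GC box, spelled GGGCGG; the box named by its letters, CCAAT; and the cyclic AMP response element, spelled TGACGTCA.
Rab11a: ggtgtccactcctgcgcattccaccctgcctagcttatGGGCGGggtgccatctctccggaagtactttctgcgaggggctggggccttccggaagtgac
Rab10: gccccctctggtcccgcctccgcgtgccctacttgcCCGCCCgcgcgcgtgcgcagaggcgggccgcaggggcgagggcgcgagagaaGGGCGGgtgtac
Rab11b: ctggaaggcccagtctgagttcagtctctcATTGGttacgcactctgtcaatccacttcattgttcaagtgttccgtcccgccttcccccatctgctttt
Rab25: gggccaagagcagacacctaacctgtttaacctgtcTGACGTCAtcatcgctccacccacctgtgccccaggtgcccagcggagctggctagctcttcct
The Rab10 stretch was the richest in G and C (79.0%) and held 15 CG pairs, while the Rab11b stretch was the poorest (51.0%) and held 3. GC boxes were found in the Rab11a stretch (1) and the Rab10 stretch (2), the CCAAT motif, as ATTGG, in that of Rab11b, and the cyclic AMP element in that of Rab25. The other recycling members are not shown, and whether motifs differ between higher and lower members was not tested. Over windows of 300 bases around the start, GGGCGG was present in 36 of the 48 members with a window (75%), against 38.2% of 27025 genes. CCAAT was present in 26 members (54.2%), against 41.1% of genes. TGACGTCA was found in Rab25 and Rab5a, 4.2% of members against 2.0% of genes. CACGTG was found in 6 members (12.5%, against 8.1%) and CATATG in Rab27a alone (2.1%, against 4.5%). AAGGTCA was in no member window and in 5.4% of genes. The 27025 genes are all those with a RefSeq window, whether or not protein-coding or listed in these libraries. They are thus not matched to the members. These are matches of letters, not measured binding sites.

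Most of the family was expressed above the floor. Of the 59 members, 37 (62.7%) were listed in both libraries, against 47.2% of protein-coding genes, and 11 (18.6%) in neither, against 43.4%. The 11 were Rab3b, Rab7b, Rab9b, Rab23, Rab33a, Rab36, Rab37, Rab39, Rab39b, Rab42 and Rab44. Another 9 were listed in control cells only and 2, Rab8b and Rab2b, in HFD cells only. These are 18.8% and 4.17% of the 48 members listed in either library, against 12.4% and 4.07% of protein-coding genes. The summed level of all members was 846 RPKM in HFD cells and 812 in control cells, a ratio of 1.04. The 10 highest members held 62.7% of this sum in HFD cells and 64.0% in control cells, and 9 of the 10 were the same genes. Across the 37 members listed in both, the rank correlation of levels between the libraries was 0.91, and over 9997 protein-coding genes listed in both it was 0.84. These correlations are given as descriptions, since all points come from the same 2 libraries.

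**Figure D1:**
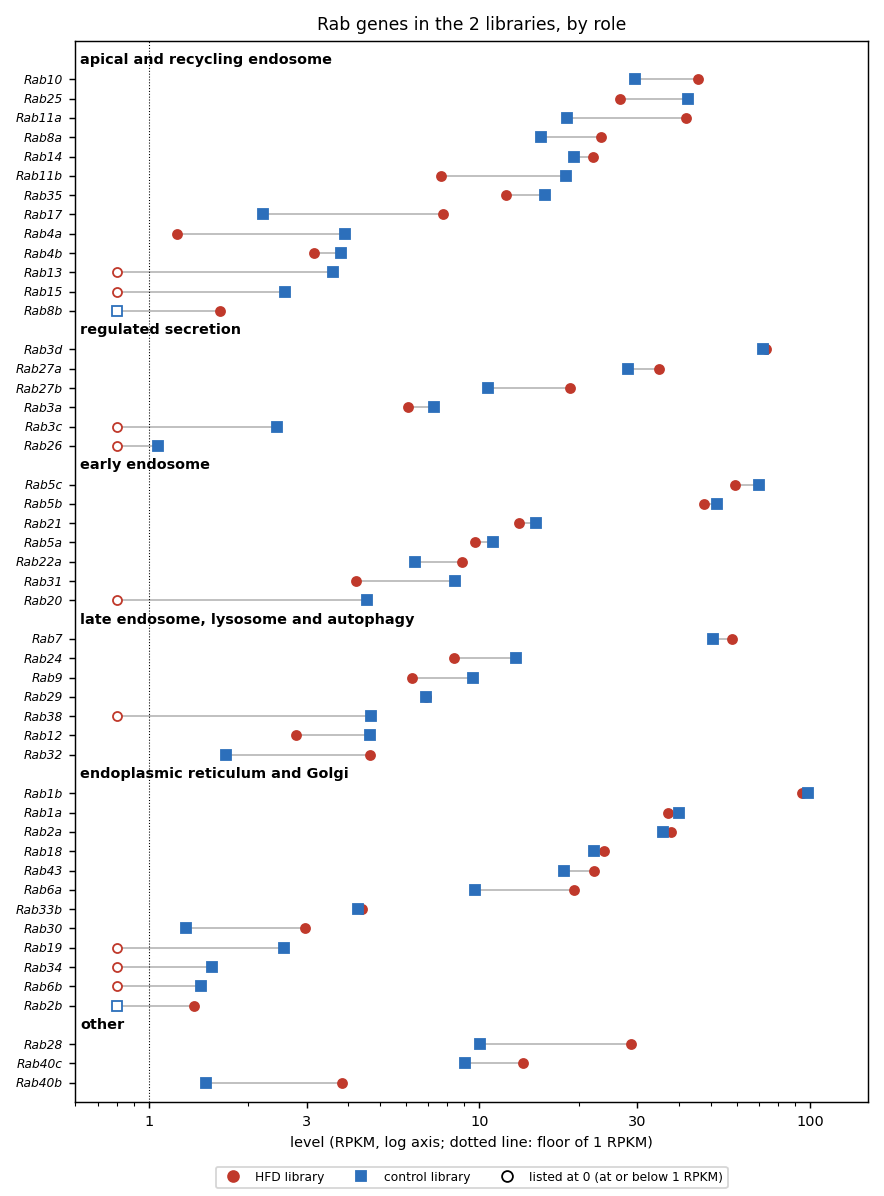
Level of each Rab gene listed in either library (RPKM, log axis), grouped by role, in HFD cells (circles) and control cells (squares); open symbols, drawn left of the dotted floor of 1 RPKM, are genes listed at 0. Rab1b and Rab3d stand highest with nearly equal values in both libraries, while Rab11a, Rab28 and Rab17 lie to the right in HFD cells and Rab11b and Rab4a to the left.

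The ratios of the members spread to both sides of equality. Of the 37 listed in both libraries, 6 (16.2%) were over 2-fold higher in HFD cells, against 7.00% of protein-coding genes, and 2 (5.41%) over 2-fold lower, against 12.5%. At 1.5-fold the counts were 11 higher (29.7%, against 18.7%) and 7 lower (18.9%, against 24.4%). The median log2 ratio of the members was 0.03, with quartiles of -0.25 and 0.61, beside -0.04 with quartiles of -0.57 and 0.43 over all protein-coding genes. The counting interval lay wholly above equality for 17 members (45.9%, against 37.8%) and wholly below it for 13 (35.1%, against 42.1%). It lay wholly beyond 2-fold for 3 higher members (Rab11a, Rab17 and Rab28, against 4.07% of protein-coding genes) and 2 lower ones (Rab11b and Rab4a, against 8.73%). In all, 21 members (56.8%) were higher and 16 lower as deposited, against 47.8% of protein-coding genes higher and 52.2% lower. The split was 10 higher (27.0%, against 17.9%) and 27 lower when the 20 most abundant genes were left out of the total used for scaling, and 29 higher (78.4%, against 63.3%) and 8 lower when values were scaled to summed protein-coding RPKM. The 2-fold counts moved with the scaling as well. In the first case 1 member was over 2-fold higher (2.70%, against 1.78%) and 8 over 2-fold lower (21.6%, against 31.8%), and in the second 8 were higher (21.6%, against 14.3%) and 1 lower (2.70%, against 7.74%). These scalings shift each log2 ratio by -0.61 and by 0.29 and move the median of protein-coding genes to -0.65 and 0.25, so the direction of any gene or list median closer to 0 than the shift against it depends on the scaling. With the trend on GC content and exon length removed, 3 members were over 2-fold higher (8.11%, against 6.58%).

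**Figure D2:**
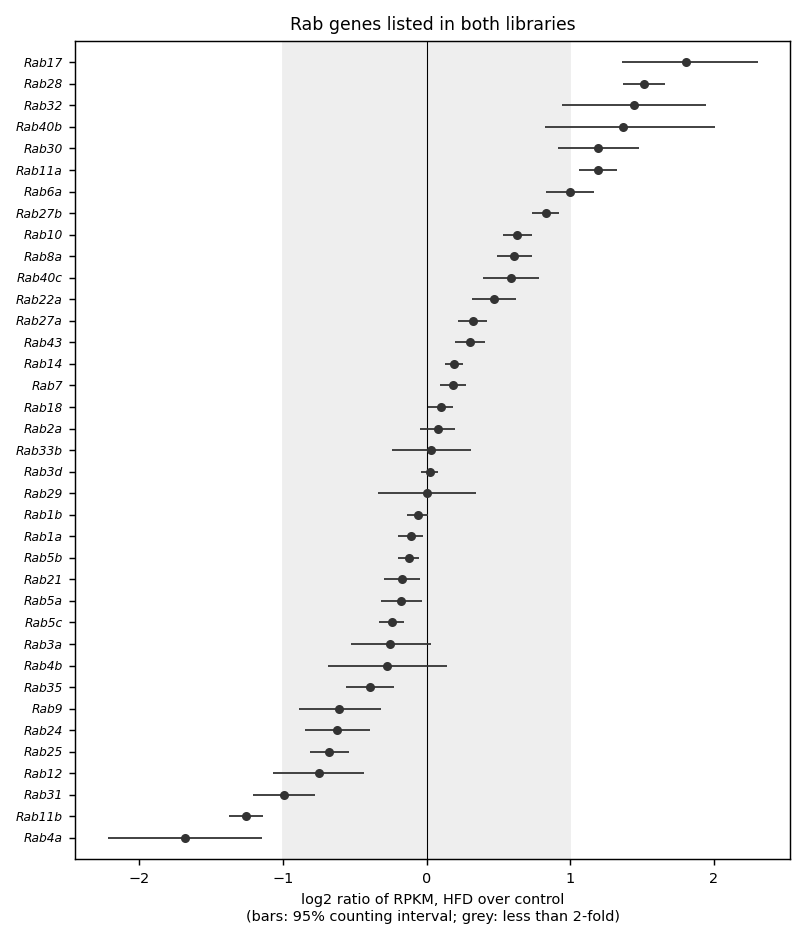
Log2 ratio of RPKM (HFD over control) of the 37 Rab genes listed in both libraries, with 95% counting intervals as bars; the grey band marks less than 2-fold. Rab17, Rab28, Rab32, Rab40b, Rab30 and Rab11a lie above the band, Rab11b and Rab4a below it, and 29 members lie inside.

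Among the Rabs of apical transport and recycling endosomes, the Rab11 subfamily differed most in its makeup. Rab11a (ENSMUSG00000004771, chromosome 9, 64715299 to 64737758, mm10), which works with myosin Vb on apical recycling endosomes, stood at 42.1 RPKM in HFD cells and 18.4 in control cells. The ratio was 2.29 (interval 2.09 to 2.51), from about 3211 and 542 reads. Rab11b (ENSMUSG00000077450, chromosome 17, 33742484 to 33760530), its close paralog, went the other way, with 7.67 RPKM in HFD cells and 18.3 in control cells, 2.39 times lower (2.20 to 2.59). Rab25 (ENSMUSG00000008601, chromosome 3, 88542029 to 88548300), the epithelial member of the subfamily, stood at 26.6 and 42.6 RPKM, 1.60 times lower in HFD cells (1.45 to 1.76). The sum of the 3 genes was nearly equal as deposited, 76.4 RPKM in HFD cells and 79.4 in control cells. The 2 scalings that moved the counts above shift the log2 ratio of this sum too, by -0.61 and by 0.29. Rab11a made up 55.1% of that sum in HFD cells and 23.2% in control cells, Rab25 34.9% and 53.7%, and Rab11b the rest, 23.1% in control cells. The leading paralog was thus Rab11a in HFD cells and Rab25 in control cells. Of the 50-base windows of Rab11b transcripts, 9.49% also occur in other loci, 8.87% in the processed pseudogene Rab11b-ps2. Rab11b-ps2 was itself listed at 15.4 and 45.6 RPKM, 2.96 times lower in HFD cells, so reads of the gene and this copy may be mixed. Gm17251 overlaps Rab11b on the opposite strand (4.51 and 3.57 RPKM). No window of Rab11a or Rab25 occurs at a locus elsewhere.

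The direction of these 3 genes was the same under each of the 4 scalings tried, but transcript composition moved with the ratios. GC-poor genes were higher in HFD cells. The median log2 ratio was 0.25 in protein-coding genes at or below the lower quartile of GC content of the longest transcript (45.2%) and -0.31 in those at or above the upper quartile (54.6%). Among members the corresponding medians were 0.63 over 11 genes and -0.24 over 9. Rab11a has 39.5% GC, Rab11b 48.1% and Rab25 55.7%. With the trend on GC content and exon length removed, a calculation added after seeing the data, Rab11a was 1.67 times higher, Rab11b 2.39 times lower and Rab25 1.31 times lower. Rab11a then no longer passed 2-fold, nor did Rab28 and Rab30, and the members over 2-fold higher were Rab17, Rab32 and Rab40b.

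**Figure D3:**
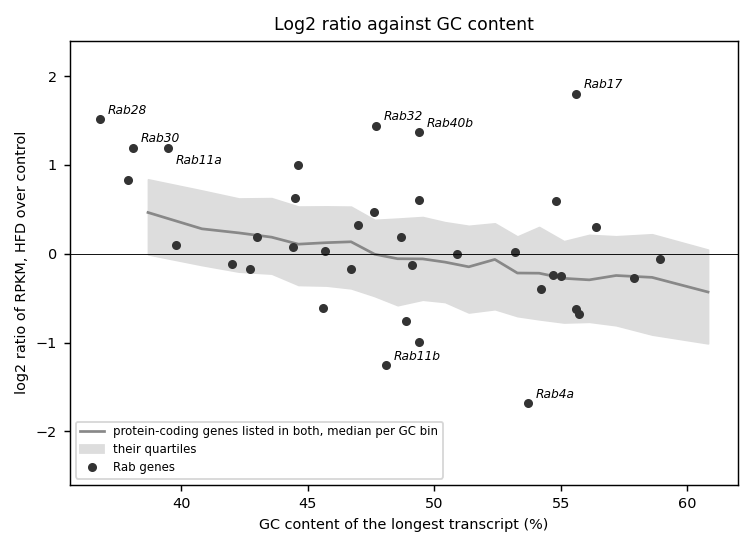
Log2 ratio of RPKM (HFD over control) against GC content of the longest transcript for the 37 Rab genes listed in both libraries; the line and band are the median and quartiles of protein-coding genes in bins of GC content, and members over 2-fold are named. Rab28, Rab30 and Rab11a sit at the GC-poor end, where the line lies above 0, while Rab17 and Rab40b lie above the band at higher GC content.

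Other members of the recycling group were divided as well. Rab17 (ENSMUSG00000026304, chromosome 1, 90958133 to 90969661), an epithelial Rab of apical recycling and transcytosis, had the highest ratio of the family. It stood at 7.74 RPKM in HFD cells and 2.21 in control cells, a ratio of 3.50 (2.57 to 4.95) on about 393 and 43 reads. Rab10, which carries cargo to the basolateral and plasma membrane, was 1.55 times as high in HFD cells (45.7 against 29.4 RPKM; 1.45 to 1.66). Rab10os overlaps Rab10 on the opposite strand (2.71 and 2.05 RPKM). Rab8a, which acts with Rab11a in apical transport, was 1.53 times as high (23.4 against 15.3 RPKM; 1.40 to 1.66). With the 20 most abundant genes left out of the scaling total, the log2 ratio of Rab10 was 0.03 and that of Rab8a 0.003, so both were near equality on that scale. The Rab8a paralog Rab8b was listed at 1.65 RPKM in HFD cells and at 0 in control cells. Rab14, of traffic between the trans-Golgi network and endosomes, was close to equal (22.0 and 19.3 RPKM, ratio 1.14, 1.09 to 1.19). With the trend on GC content and length removed, Rab14 was 1.13 times lower in HFD cells.

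Several recycling Rabs were lower in HFD cells. Rab4a, of fast recycling from early endosomes, stood at 1.22 and 3.93 RPKM, 3.22 times lower (2.21 to 4.66), but on about 55 and 68 reads only. The gene Gm20388 (33.1 and 36.9 RPKM) spans Rab4a on the same strand, although the transcripts of the 2 genes share no window of 50 bases. Its paralog Rab4b had 3.15 and 3.82 RPKM, 1.21 times lower with an interval that includes equality (0.91 to 1.61). Of its windows, 56.0% lie in overlapping genes, among which Gm21983, on the same strand, stood at 9.93 and 14.7 RPKM. Rab35, which recycles cargo from endosomes to the plasma membrane, was 1.32 times lower (12 against 15.8 RPKM; 1.17 to 1.48). Rab13, of junction assembly, and Rab15 were listed at 0 in HFD cells, against 3.60 and 2.58 RPKM in control cells. Fntb overlaps Rab15 on the opposite strand (3.37 RPKM in HFD cells and 6.70 in control cells). Of the 13 genes of this group, 10 were listed in both libraries, 5 higher and 5 lower, with a median log2 ratio of -0.04.

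In the group of regulated secretion, Rab3d dominated and hardly differed as deposited. Rab3d, the Rab of zymogen and other exocrine granules, was the second highest member of the family in both libraries, at 73.3 RPKM in HFD cells and 72.3 in control cells (ratio 1.02, 0.97 to 1.06). Its log2 ratio was -0.585 with the 20 most abundant genes left out of the scaling total. With values scaled to summed protein-coding RPKM it was 0.315. Rab3d held 92.3% and 88.2% of the summed level of the Rab3 subfamily. Rab27b, known from tubulovesicles of parietal cells, stood at 18.8 and 10.6 RPKM, 1.78 times as high in HFD cells (1.67 to 1.90). With the trend on GC content and length removed its ratio was 1.22. Its paralog Rab27a was 1.25 times as high (35.0 against 28.1 RPKM; 1.17 to 1.34). The sum of both Rab27 genes was 53.9 RPKM in HFD cells and 38.6 in control cells.

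The Rab3 genes typical of neuroendocrine vesicles were low. Rab3a stood at 6.09 RPKM in HFD cells and 7.26 in control cells (1.19 times lower, 0.98 to 1.44). Mpv17l2 overlaps Rab3a on the opposite strand (29.63 and 24.05 RPKM). Rab3c was listed at 0 against 2.45 RPKM, and Rab3b was listed at 0 in both. Endocrine markers were lower in HFD cells for 10 of 12 genes, among them Ghrl at 707 against 5913 RPKM and Chga at 233 against 1204 RPKM. Pcsk1 was listed at 0 in HFD cells and Neurod1 in control cells. The part of these cells in the Rab3c value was not tested. Rab26, a Rab of secretory granules, was listed at 0 in HFD cells and at 1.06 RPKM in control cells, just above the floor.

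Of the 6 early endosome Rabs listed in both libraries, 5 were lower in HFD cells, against 52.2% of protein-coding genes. The Rab5 genes and Rab21 lay close to equal. With values scaled to summed protein-coding RPKM, these 4 genes were instead higher in HFD cells. With the trend on GC content and length removed, the log2 ratio was 0.002 for Rab5c, -0.04 for Rab5b, -0.28 for Rab5a and -0.37 for Rab21. Rab5c, Rab5b and Rab5a, which drive fusion of early endosomes, had 59.2 and 70.1 RPKM, 47.8 and 52.1 RPKM, and 9.70 and 11.0 RPKM, HFD library first. Their ratios were 0.84 (0.79 to 0.90), 0.92 (0.87 to 0.96) and 0.88 (0.80 to 0.98). Their shares of the subfamily stayed within 2 percentage points of each other between the libraries, in contrast to the Rab11 genes: Rab5c held 50.7% and 52.6%, Rab5b 40.9% and 39.1%, and Rab5a 8.31% and 8.23%. Of Rab5b windows, 9.80% also occur in the pseudogene Gm13991 (78.9 and 80.2 RPKM). Rab21, of integrin traffic, had 13.2 and 14.8 RPKM, and Rab22a was the group's single higher member with 8.84 and 6.38 RPKM, 1.38 times as high (1.25 to 1.54). Rab31, of traffic between the trans-Golgi network and endosomes, was 1.99 times lower (4.23 against 8.43 RPKM; 1.72 to 2.31), just inside 2-fold. Rab20 was listed at 0 in HFD cells and at 4.57 RPKM in control cells.

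**Figure D4:**
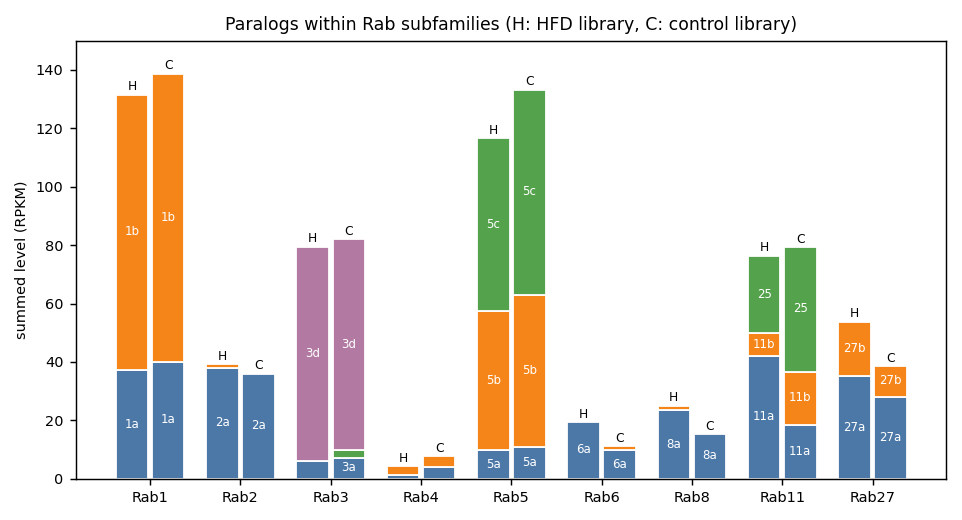
Summed level (RPKM) of the paralogs of 9 Rab subfamilies in HFD cells (H) and control cells (C), each bar divided by gene. As deposited, the Rab11 bars have nearly equal height (76.4 and 79.4 RPKM) but a different makeup, while the Rab1 and Rab5 bars keep theirs.

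Late endosome and lysosome Rabs were led by Rab7, the Rab of late endosomes and lysosome fusion, with 57.9 RPKM in HFD cells and 51.0 in control cells (ratio 1.14, 1.07 to 1.21). Of its windows, 11.4% also occur in other loci, chiefly Rab7-ps1. Rab9, of return from late endosomes to the Golgi, was 1.53 times lower (6.25 against 9.56 RPKM; 1.25 to 1.85). Rab24, linked to autophagy, was 1.54 times lower (8.39 against 12.9 RPKM; 1.31 to 1.80), and 49.6% of its windows are shared with genes overlapping it. Prelid1 overlaps it on the opposite strand (47.02 and 64.35 RPKM, 1.37 times lower in HFD cells). Rab12 had 2.78 and 4.68 RPKM, 1.69 times lower (1.35 to 2.10), and Rab29 had 6.92 and 6.91 RPKM. Rab32 and Rab38, related Rabs of lysosome-related organelles, went opposite ways. Rab32 stood at 4.68 RPKM in HFD cells and 1.72 in control cells, a ratio of 2.72 (1.93 to 3.85) with 40 reads in control cells, whereas Rab38 was listed at 0 in HFD cells and at 4.70 RPKM in control cells, the highest level of any member listed in 1 library only.

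The Rabs of the endoplasmic reticulum and Golgi held the most abundant member. Rab1b, which drives transport from the endoplasmic reticulum to the Golgi, stood at 94.5 RPKM in HFD cells and 98.6 in control cells (ratio 0.96, 0.91 to 1.01), above 98.8% and 98.9% of protein-coding genes. Rab1a (37.1 and 40.1 RPKM, ratio 0.93) and Rab2a (37.9 and 35.9 RPKM, ratio 1.05, 0.97 to 1.15), of the same transport steps, were also close to equal. Rab18, found on lipid droplets and the endoplasmic reticulum, had 23.8 and 22.2 RPKM (ratio 1.07, 1.01 to 1.14). With the trend on GC content and length removed, Rab18 was 1.40 times lower in HFD cells and Rab1a 1.23 times lower. Rab1b was then 1.13 times as high, and the ratio of Rab2a was 0.996. As deposited, Rab6a, of traffic within and back from the Golgi, was the exception among the abundant members of the group. It had 19.4 and 9.69 RPKM, a ratio of 1.998 (1.78 to 2.247), just inside 2-fold. Of Rab6a windows, 17.7% lie in overlapping genes. Mrpl48 overlaps Rab6a on the opposite strand and was listed at 0 in HFD cells and at 2.28 RPKM in control cells. The Rab6a paralog Rab6b was listed at 0 in HFD cells and at 1.44 RPKM in control cells.

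The lower Golgi Rabs varied. Rab43 had 22.2 and 18.1 RPKM (ratio 1.23), with 74.5% of its windows shared with overlapping genes, and Rab33b had 4.40 and 4.30 RPKM. Rab30 was 2.29 times as high in HFD cells at low levels (2.97 against 1.295 RPKM; 1.89 to 2.80). Rab19 (2.57 RPKM) and Rab34 (1.55 RPKM) were listed in control cells only, and Rab2b in HFD cells only (1.37 RPKM), with 56.99% of its windows in overlapping genes. Tox4 overlaps Rab2b on the opposite strand (5.81 and 5.68 RPKM).

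Outside these groups, Rab28 (ENSMUSG00000029128, chromosome 5, 41624976 to 41708157), a Rab linked to cilia, was 2.86 times as high in HFD cells (28.7 against 10.03 RPKM; 2.59 to 3.16). It is the most GC-poor member listed in both libraries (36.8% GC), and its ratio was 1.997 with the trend on GC content and length removed. Rab40b and Rab40c, which join ubiquitin ligases through a SOCS box, were both higher. Rab40b stood at 3.85 and 1.49 RPKM (ratio 2.59, 1.77 to 4.02, on 197 and 29 reads) and Rab40c at 13.6 and 9.03 RPKM (ratio 1.51, 1.32 to 1.72). On the opposite strand Rab40c is overlapped by Gm10012 (41.5 and 6.43 RPKM), Gm16278 (5.38 and 9.42 RPKM) and Gm26694 (0 and 1.55 RPKM).

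The 11 members with a mean over 30 RPKM ranged from 0.62 times the control level (Rab25) to 2.29 times (Rab11a), and 3 of them, with Rab10, differed by over 1.5-fold. The other 8 were Rab1a, Rab1b, Rab2a, Rab3d, Rab5b, Rab5c, Rab7 and Rab27a. Of the 19 members of at least 10 RPKM in both, 6 differed by over 1.5-fold either way. The share of protein-coding genes was not computed at either of these levels. Among protein-coding genes of any level with a ratio, 18.7% passed 1.5-fold upward in HFD cells and 24.4% downward. These shares are thus not matched in level to the members counted here. The 9 members listed in control cells only ranged from 1.06 to 4.70 RPKM there. A value of 0 does not show absence: at the floor, Rab13 could hold about 58.6 reads in HFD cells and Rab3c about 307. Alongside these control-only members, fibroblast markers were lower in HFD cells for 6 of 6 genes (summed level 42.5 against 118 RPKM, with Lum and Pdgfra at 0), as were smooth muscle markers for 5 of 5 (24 against 167 RPKM) and endothelial markers for 4 of 4 (4.61 against 17.3 RPKM, with Tek at 0). Pancreatic acinar markers were lower for 10 of 10 (1797 against 13593 RPKM, with 8 at 0 in HFD cells). Leukocyte markers went the other way, with a summed level of 28.0 against 8.13 RPKM, led by Cd74 (14.8 and 5.11 RPKM) and H2-Aa (11.2 and 1.67 RPKM), while Ptprc and 5 others of the 10 were at 0 in both. Their part in the Rab values was not tested.

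The genes that run the Rab cycle were taken from 6 lists with 142 different genes, of which 125 were listed in both libraries. Among the 125, 6 lay over 2-fold higher and 4 over 2-fold lower (4.80% and 3.20%, against 7.00% and 12.5% of protein-coding genes), and their median log2 ratio was 0.20. By any amount, 73 (58.4%) were higher, against 47.8% of protein-coding genes. The prenylation and recycling list held 10 genes, 4 higher (40.0%, against the same 47.8%) and 6 lower (median -0.22). Gdi2, a GDP dissociation inhibitor, had 56.1 and 44.0 RPKM (ratio 1.27), and Rabac1, a prenylated Rab acceptor, had 53.1 and 64.9 RPKM (1.22 times lower). Yipf5 had the list's highest ratio, 2.22 (18.4 against 8.28 RPKM), and Pde6d, which binds prenylated proteins, its lowest, 2.69 times lower (1.82 against 4.89 RPKM).

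Of 27 exchange factors listed in both libraries, 18 (66.7%, against 47.8% of protein-coding genes) were higher and 9 lower (median 0.24). Ccz1, of the Rab7 exchange factor, was 2.20 times as high in HFD cells (40.1 against 18.2 RPKM; 2.04 to 2.37). St5 was 1.39 times lower (29.6 against 41.2 RPKM), and Rgp1, of the Rab6 exchange factor, was 1.49 times lower (8.52 against 12.7 RPKM). Among 32 GTPase-activating proteins, 17 (53.1%, against the same 47.8%) were higher and 15 lower (median 0.13). Tbc1d7 was 2.43 times as high (17.2 against 7.06 RPKM) and Sgsm2 3.98 times lower (1.65 against 6.55 RPKM). The most abundant were Tbc1d9 (49.99 and 32.4 RPKM, ratio 1.54) and Sgsm3 (34.8 and 39.0 RPKM).

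Of the effectors of Rab11 and Rab8, 15 of 21 listed in both (71.4%, against 47.8% of protein-coding genes) were higher (median 0.29). Myo5a, an actin motor that carries Rab27 and Rab11 vesicles, had the highest ratio, 4.90 (6.62 against 1.35 RPKM; 4.23 to 5.68). The other class V myosins in the list were Myo5c, with 34.6 and 29.1 RPKM (ratio 1.19), and Myo5b, with 12.7 and 10.3 RPKM (ratio 1.23). The recycling protein Ehd1 had 48.7 and 34.5 RPKM (ratio 1.41), and the exocyst gene Exoc6 was the lowest at 1.76 times lower (3.76 against 6.599 RPKM). Of the Rab3 and Rab27 effectors, 7 of 11 (63.6%, against the same 47.8%) were higher (median 0.53). Myo5a is counted in both effector lists and had the highest ratio of this list too. Mlph, which links Rab27a to myosin Va, had 48.6 and 33.7 RPKM (ratio 1.44) and Sytl1, a synaptotagmin-like Rab27 effector, had 44.8 and 26.1 RPKM (1.72), while Sytl5 was 1.86 times lower (1.55 against 2.87 RPKM).

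Effectors of Rab5 and Rab7 were evenly divided, 13 higher (52.0%, against 47.8% of protein-coding genes) and 12 lower (median 0.08). The Rab7 effector Rilp was 3.24 times as high in HFD cells (8.997 against 2.78 RPKM; 2.37 to 4.58), whereas the related Rilpl2 was 6.46 times lower (1.29 against 8.31 RPKM; 5.24 to 7.98). Appl2 (28.1 and 19.8 RPKM, ratio 1.42) and Vps41 (28.1 and 18.9 RPKM, ratio 1.49) were the most abundant. As families most like the Rabs, 22 SNARE genes listed in both had a median of 0.29 (16 higher, 6 lower) and 18 Arf and Arl genes one of 0.03 (9 and 9). No test of a difference between these families was possible.

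**Figure D5:**
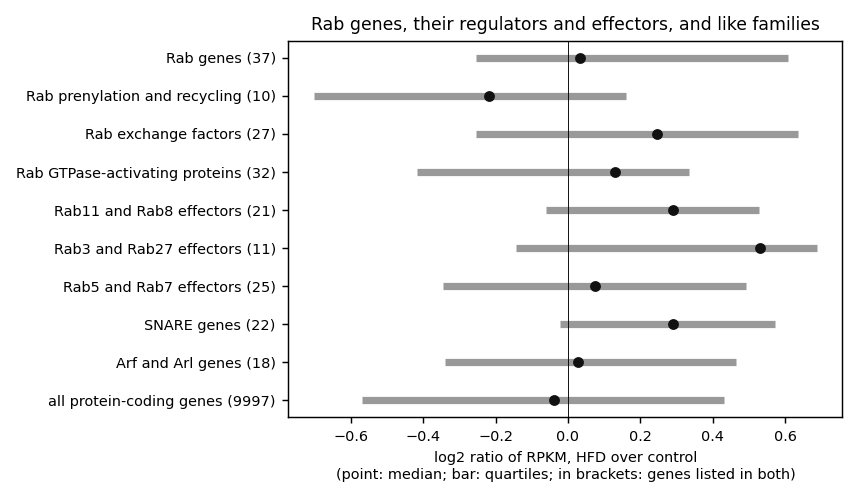
Median (point) and quartiles (bar) of the log2 ratio of RPKM, HFD over control, for Rab genes, their regulators and effectors, related families and all protein-coding genes listed in both libraries; numbers of genes are in brackets. The Rab median of 0.03 lies near that of all protein-coding genes (-0.04). The medians of the effector lists of Rab11 and Rab8 (0.29) and of Rab3 and Rab27 (0.53) lie to its right, as does that of the SNARE genes (0.29).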

How the data were processed

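Per the labels' protocols, RNA of sorted cells was depleted of ribosomal RNA and made into Ion Total RNA-Seq libraries. Among tools and builds, bedtools 2.25.0 and mm10 appear, per the submitters' processing notes. The sources used here give no aligner, counting rule, use of strand or annotation release. The deposited values, headed RPKM, were read as log2 of the RPKM computed by the authors, in which a 0 stands for 1 RPKM or less and no pseudocount was seen. Symbols, positions and exon lengths came from GENCODE M21 on GRCm38 (36308 of 38087 identifiers matched). The ratio is the difference of deposited log2 values for genes listed in both libraries, and no fold is given against a value of 0. Depth came from the step at which RPKM times length recurs in genes with 1 exon and 1 transcript. At 12 steps or fewer, 49.7% of 189 values in HFD cells and 35.8% of 724 in control cells were whole within 0.005 of a step. Counting intervals are exact conditional binomial, from reads estimated with GENCODE lengths, and are approximate. Such reads carry no molecular identifiers and are not independent molecules. No count model was run and no p-value is given. Shared sequence was measured as 50-base windows of a member's transcripts found in transcripts of another gene. In simulated libraries of 36308 genes for this comparison, depth was recovered to a ratio of 1.00, and of genes changed 4-fold and listed in both, 100% passed 2-fold in the true direction. The simulated reads held counting error alone and used the same gene lengths as the recovery of depth. They therefore check the calculation only, and say nothing on the depth or the ratios of the real libraries.

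All members may be named. Ratios with intervals were planned for the recycling and secretion groups, the 6 highest members and the 6 highest and 6 lowest ratios with at least 50 estimated reads. Of each list of regulators or effectors, the 2 highest genes and both extreme ratios were named. Myo5b, the pseudogenes and overlapping genes, and further ratios of members, were added after values were seen. A further family planned for comparison is not reported here. Members and lists were chosen with earlier results of these data known. Calculations used Python 3.11.15, pandas 2.3.3 and scipy 1.17.1.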

Additional observations from a re-analysis of the deposited data

How the results depend on the processing

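Entering the 48 members listed in either library with log2(RPKM + 1) gave 11 over 2-fold lower in place of 2 (22.9%, against 20.1% of protein-coding genes). The median was -0.085. With log2(RPKM + 0.1) the values were 11 (22.9%, against 22.5%) and -0.086. With a 0 entered as 1 RPKM they were 8 (16.7%, against 16.5%) and -0.075. The counts rose because genes listed in 1 library only enter. The lists of regulators and effectors then had 11, 11 and 8 of 133 genes lower in place of 4 of 125. The shares of protein-coding genes beside them are the same 20.1%, 22.5% and 16.5%. Among 30 members of at least 5 RPKM, 3 were over 2-fold higher (against 7.24%) and 1 lower (against 13%). With the 20 most abundant genes left out of the total used for scaling, which shifts each log2 ratio by -0.61, 1 member was higher and 8 lower (2.70% and 21.6%, against 1.78% and 31.8%; median -0.57), and 2 and 25 of the 125 listed regulators and effectors. Rescaled to summed protein-coding RPKM (shift 0.29), 1 member was lower (2.70%, against 7.74% of protein-coding genes) and the median was 0.33. On that scale 16 of the 125 regulators and effectors were higher, against 14.3% of protein-coding genes. Without the trend on GC content and exon length 3 members were higher (8.11%, against 6.58%) and 7 of the 125 regulators and effectors lower (against 11.2%). Another alternative left out the members that share over 5% of windows with another locus or overlap a listed gene. Of the 26 members kept, 6 were over 2-fold higher (23.1%, against 7.01%) and 0 over 2-fold lower (against 12.4%). Rab11b and Rab4a, the 2 lower members as deposited, were among those left out. Both alternatives were added after seeing the data. At 1.5-fold the counts were 11 and 7 (29.7% and 18.9%, against 18.7% and 24.4%). With the whole counting interval beyond 2-fold 3 members were higher (against 4.07%). Under the other scalings, to the median and to the upper quartile of protein-coding genes, these counts stayed within 1.5 times. No called member changed direction under any alternative run. No paired analysis was possible because each diet has 1 library, and for the same reason no library could be left out. Depth limits low members: Rab40b rested on 29 reads and Rab32 on 40 in control cells.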

Other observations

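At the Rab26 locus 2 entries lie on the opposite strand. Rab26os, an antisense transcript of 497 bases at chromosome 17, 24528248 to 24528744, was listed at 625 RPKM in HFD cells and 42.8 in control cells, a ratio of 14.6 on about 7921 and 209 reads. The small nucleolar RNA gene Snord60 lies inside it, at 24528476 to 24528553. Snord60 was listed at 0 in HFD cells and at 228 RPKM in control cells. The counting rule that divides reads between these nested entries is unknown here, so neither value can be assigned to 1 of them.

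Values of 4 genes related to Rabs but outside the naming rule are given as a description. Rabl6 stood at 10.6 against 15.3 RPKM (1.45 times lower), Ift27, a Rab-like GTPase of cilia, at 2.09 against 6.14 RPKM (2.93 times lower) and Rabl2 at 1.03 against 2.70 RPKM (2.62 times lower). Rabl3 was listed at 0 in HFD cells and at 1.47 RPKM in control cells. These 4 genes were chosen after their values were seen.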
